A study of Mus musculus with 14 samples.

Results

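The insulin receptor to Akt signaling genes are the receptors Insr and Igf1r, the adaptors Irs1 and Irs2, the PI3-kinase subunits Pik3r1 and Pik3ca, and the kinases Pdpk1, Akt1 and Akt2, and they were measured in skeletal muscle of mice with or without c-Myc overexpression in endothelial cells. They were chosen by symbol, as the core of the route from the receptor to Akt. All 9 were found, among 54532 genes in the count table, and all 9 were among the 15458 genes left by a filter on low counts. Insulin and insulin-like growth factors bind receptor tyrosine kinases, which phosphorylate the Irs adaptors. The adaptors recruit PI3-kinase, whose lipid product brings Akt to the plasma membrane, where Pdpk1 phosphorylates it. In muscle fibres this route moves the glucose transporter Slc2a4 to the cell surface, favours glycogen and protein synthesis, and keeps Foxo transcription factors out of the nucleus. Transcript levels were measured, and phosphorylation and protein levels were not analysed here.

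The study examined how c-Myc in endothelial cells bears on body metabolism under a fat-rich diet, by RNA sequencing of muscle. Mice were FVB/N males. EC-Myc OE mice (OE) carried a human c-Myc transgene under a tetracycline operator (Tet-O-Myc) together with the transactivator Cdh5-tTA, which the promoter of an endothelial cadherin gene drives, and control mice (CT) were littermates with Tet-O-Myc and no transactivator. By the study's methods the transgene sits on the Y chromosome in this line, so that CT males carried it as well. Doxycycline in the diet kept the transgene off until it was withdrawn when the mice were 4 to 6 weeks old, in CT and OE alike. The mice then received control diet (CTD) or a high-fat diet that the labels call western diet (WD), by the labels for 20 weeks, and a passage of the study's text gives a shorter time. By the labels there were 3 libraries of CT-CTD, 3 of CT-WD, 4 of OE-CTD and 4 of OE-WD. The study's text gives other group sizes, and the labels were kept. If CT-WD and OE-CTD had swapped names, the diet comparison in CT would trade places with the genotype comparison on CTD, the diet comparison in OE would trade places with the genotype comparison on WD, and the interaction would keep its value. A gene that splits the libraries by genotype as labelled, as Eif4ebp1 did with all 8 OE libraries below all 6 CT libraries, would then split them by diet. The tissue label is skeletal muscle, the study's methods name soleus and gastrocnemius, and neither says which muscle a library came from. Each library has a sample code, and what the codes stand for is not given, so the p-values measure the spread between these libraries, whether or not each came from a separate mouse. Within the codes, CT-CTD 1 and CT-WD 1 have neighbouring numbers apart from those of the other 4 CT libraries, 3 of the 4 OE-CTD libraries share a number that OE-CTD 4 lacks, and all 4 OE-WD libraries share a number. In OE no number is shared between the diets, so diet cannot be told apart from what the numbers stand for. If libraries that share a number came from 1 mouse, their spread would not be that between mice. The chi-square between the counts of 2 libraries of a group, per degree of freedom, was 7.81 to 10.6 among OE-CTD 1 to 3. With OE-CTD 4 it was 37.0 to 43.0. It was 8.52 to 15.2 among OE-WD 1 to 3, 38.9 to 42.8 with OE-WD 4, and 16.8 to 50.8 in CT. A library is named here by its group and replicate number. Library totals were between 21833839 and 28519159 counts, and the smallest count of a member in a library was 341.

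The tissue label was compared with marker genes. The 12 muscle fibre markers summed to between 158458 and 222641 CPM (counts scaled to the normalized library total) in a library, Myh4 was the most abundant of them in 13 of the 14 libraries and Acta1 in OE-CTD 1, and none was at 0. The fast fibre gene Tnnc2 was the exception in level, with a mean of 0.684 CPM. The 8 slow fibre markers summed to between 4717 and 7468 CPM, with Atp2a2 the most abundant in every library. The fast fibre myosin Myh4 alone exceeded the summed slow fibre markers in all 14 libraries. The 10 endothelial markers, which mark the cells that the transgene's driver targets, summed to 436 ± 23.6 CPM in CT-CTD, 497 ± 38.6 in CT-WD, 521 ± 18.6 in OE-CTD and 575 ± 16.4 in OE-WD (mean ± SD, n = 3, 3, 4 and 4). The most abundant of them was Cdh5 in 6 libraries, Eng in 5 and Pecam1 in 3, and none was at 0. Each of the 8 OE libraries had a higher endothelial sum than each of the 3 CT-CTD libraries, and the 4 OE-WD libraries were above every other library. In whole muscle, more cells of a type and more RNA per cell cannot be told apart, and a difference in a member's level cannot be placed in a cell type.

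Fibroblast markers (6 genes) summed to 553, 484 and 397 CPM in CT-CTD and 1339, 411 and 403 CPM in CT-WD. They summed to 1216, 1447, 1312 and 811 CPM in OE-CTD and 917, 2243, 1229.9 and 971 CPM in OE-WD. All OE libraries were thus above all CT libraries except CT-WD 1, which lay among the OE libraries. Macrophage markers (8 genes) summed to 78.5, 47.1 and 41.7 CPM in CT-CTD and 126, 62.3 and 52.9 CPM in CT-WD. Their sums were 81.1, 98.4, 127 and 80.5 CPM in OE-CTD, and 75.3, 125, 76.0 and 81.8 CPM in OE-WD. CT-CTD 1 and CT-WD 1 were the highest of their groups in that sum. By library, the range was 1596 to 2576 CPM for adipocyte markers, 122 to 355 CPM for Schwann cell markers, 26.0 to 38.1 CPM for satellite cell markers and 125 to 382 CPM for haemoglobin and erythroid genes. Car3, with a mean of 1689 CPM, was the highest adipocyte marker in all 14 libraries and made up most of that sum. The means of the others ran from 1.81 CPM (Retn) to 216 CPM (Fabp4), with 9.73 CPM for Adipoq and 15.4 CPM for Plin1. The sum is thus mainly a measure of Car3 and is not read as adipocyte content. All 8 adipocyte markers were lower in CT-WD than in CT-CTD (median log2 fold change -0.778), none at an unadjusted p under 0.05 by edgeR. In OE-WD against CT-WD 6 were higher and 2 lower (median 0.534), with 2 higher at that threshold. In OE-CTD against CT-CTD 2 were higher and 6 lower. Epidermal markers summed to between 2.45 and 122 CPM.

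Several libraries stood apart from their groups. OE-CTD 4 and OE-WD 4 had the lowest normalization factors, 0.888 and 0.899, where the other 12 lay between 0.945 and 1.07. They also had the highest share of mitochondrial counts, 14.9% and 14.5%, the highest muscle fibre sums, 218256 and 222641 CPM, and the lowest scores on the second principal component of all tested genes, -47.6 and -28.9, which held 12.6% of the variance. On the first component, which held 28.0%, the OE libraries lay between -9.20 and 33.7. CT-WD 1 (20.3) and CT-CTD 1 (-0.154) lay within that range. The other CT libraries were lower, at -39.2 and -47.0 in CT-WD and -33.3 and -33.1 in CT-CTD. Among the members, OE-CTD 4 and OE-WD 4 were the top 2 libraries for Insr and for Pdpk1. CT-WD 3 was the highest library for Irs1, Irs2 and Akt2, and CT-WD 1 the highest for Pik3r1.

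Levels were compared between genes as FPKM, which divides by gene length. Akt2 had the highest mean FPKM over the 14 libraries, 40.3 ± 5.17 (SD), followed by Akt1 with 14.2 ± 1.16. Irs2 had 8.98 ± 6.03 FPKM, Pik3ca 6.34 ± 0.513 and Insr 6.33 ± 0.830. The lowest mean FPKM values were those of Pdpk1 (3.28 ± 0.566), Irs1 (2.595 ± 1.10), Pik3r1 (2.38 ± 0.461) and Igf1r (1.295 ± 0.173). Akt2 lay above every other member, with 34.4 to 50.5 FPKM. Akt1, with 11.8 to 15.3 FPKM, was exceeded below Akt2 only by the Irs2 value of 28.9 FPKM in CT-WD 3. Insr, Pik3ca and Irs2 overlapped in FPKM, as did Irs1, Pik3r1 and Pdpk1, and Igf1r overlapped Irs1 alone. Irs1, at up to 5.50 FPKM, also reached above the lowest values of Insr (5.37 FPKM) and Irs2 (5.19 FPKM). In each paralogue pair, Insr exceeded Igf1r, Irs2 exceeded Irs1 and Akt2 exceeded Akt1 in mean FPKM.

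The members differed in how much they varied. The coefficient of variation of CPM over the 14 libraries was 66.8% for Irs2 and 41.8% for Irs1, at percentiles 99.0 and 94.8 of the 12746 genes with a mean of at least 1 CPM, whose median was 14.5%. It was 19.8% for Pik3r1 and 16.5% for Pdpk1. The other 5 members were below that median, from 13.1% for Igf1r down to 7.68% for Pik3ca. Over the 14 libraries the adaptors thus varied most, and the catalytic PI3-kinase subunit least. Without CT-CTD 2, Akt1 varied less (6.60%) than Pik3ca (7.60%). The Irs2 value rested on CT-WD 3. Over the other 13 libraries, a choice made after the data were seen, it was 24.9% (percentile 80.6), below the 30.4% of Irs1 (percentile 88.3), and these were still the highest 2 of the 9 members. Genes that overlap a member in the annotation had means of at most 0.784 CPM.

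Differences were tested with edgeR's quasi-likelihood test on counts, with p-values adjusted over all tested genes by the Benjamini-Hochberg method, and a gene was called at p under 0.05. The diet comparisons ask what WD does within a genotype, the genotype comparisons ask what EC-Myc OE does on a diet, and the interaction asks whether the diet difference depends on genotype. The comparisons share groups, so their values are not independent. With adjusted p-values edgeR called 0 of the 9 members in each of the 5 comparisons, and DESeq2's Wald test and limma on log2 FPKM also called 0 in each. Of all tested genes, the share called by edgeR with adjusted p-values was 0% for CT-WD against CT-CTD, 0.00647% for OE-WD against OE-CTD, 0.725% for OE-WD against CT-WD, 2.67% for OE-CTD against CT-CTD, and it was 0% in the interaction. With unadjusted p-values edgeR called 1 member higher in CT-WD than in CT-CTD (Irs2), against 7.28% of all genes. It called 0 members for OE-WD against OE-CTD, as did DESeq2 and limma, against 4.2% of all genes. It called 1 member lower in OE-WD than in CT-WD (Irs2), against 16.9%, 1 member higher in OE-CTD than in CT-CTD (Pik3ca), against 15.9%, and 1 member in the interaction (Irs2), against 5.92%. Each count is within 1 gene of what those shares give for 9 genes.

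The libraries of both groups did not overlap in CPM for 1 of the 9 members between CT-WD and CT-CTD (Irs2), where this held for 9.63% of all tested genes. They did not overlap for 2 members between OE-CTD and CT-CTD (Irs2 and Pik3ca, both higher in OE-CTD), against 15.5% of genes. All 9 members overlapped between OE-WD and OE-CTD, where 4.08% of genes did not, and between OE-WD and CT-WD, where 11.6% did not. The median log2 fold change of the 9 members was 0.052 for CT-WD against CT-CTD, 0.0013 for OE-WD against OE-CTD, 0.030 for OE-WD against CT-WD, -0.030 for OE-CTD against CT-CTD, and it was -0.049 in the interaction. Over all tested genes the same medians were 0.0071, 0.0048, 0.0056, -0.00070 and -0.0057. Ordered by group mean, the neighbouring groups overlapped for 8 of the 9 members at every step, and the exception was Irs2, whose lowest group, CT-CTD, lay apart from the next.

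**Figure D1:**
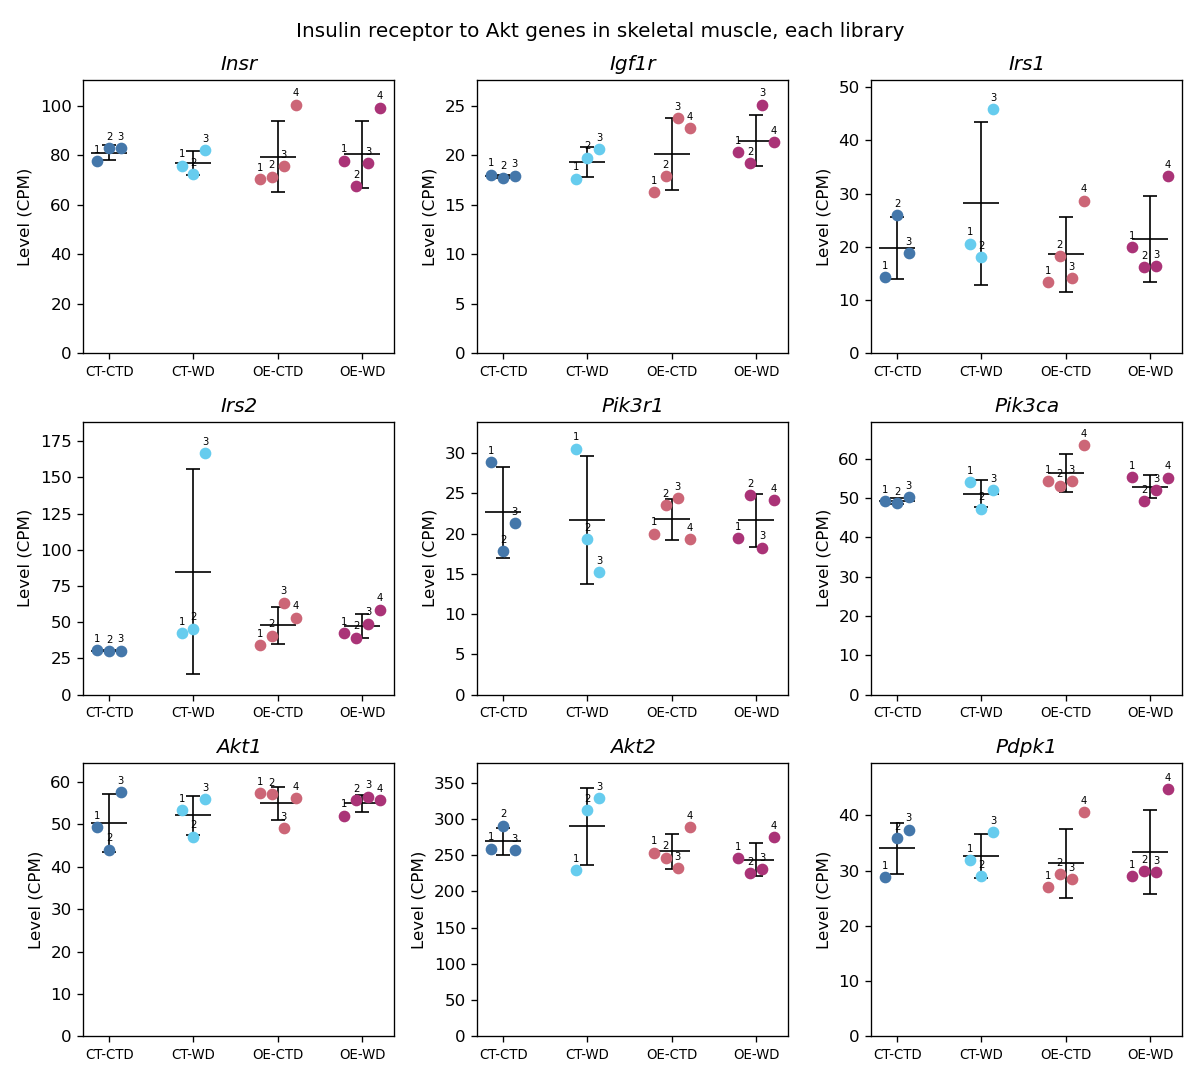
Level of each member in CPM on the y axis (linear, from 0) for the 14 libraries, by group on the x axis, with each point a library marked by its replicate number and bars for the mean ± SD (n = 3 for both CT groups, n = 4 for both OE groups). The Irs2 value of 167 CPM in CT-WD 3 lies far above the other 13 libraries, and OE-CTD 4 and OE-WD 4 are the highest points for Insr and Pdpk1.

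Insr (ENSMUSG00000005534, chr8:3122061-3279617, minus strand, positions of the count table on mm10) encodes the insulin receptor. In CT-CTD the libraries had 77.5, 82.8 and 82.9 CPM, and in CT-WD they had 75.9, 72.4 and 82.1 CPM. In OE-CTD the values were 70.4, 71.4, 75.7 and 101 CPM, and in OE-WD they were 77.9, 67.5, 76.7 and 99.3 CPM. OE-CTD 4 and OE-WD 4 were above all other libraries, and without them the OE libraries lay within or below the range of CT. The group means were 81.1 ± 3.09 CPM (SD of 3 libraries), 80.4 ± 13.4 CPM (SD of 4 libraries), 79.5 ± 14.2 CPM (SD of 4 libraries) and 76.8 ± 4.91 CPM (SD of 3 libraries) in CT-CTD, OE-WD, OE-CTD and CT-WD, each overlapping the next. The log2 fold change was -0.079 (standard error 0.141, unadjusted p = 0.585, adjusted p = 0.957) for CT-WD against CT-CTD in edgeR and 0.066 (standard error 0.132, unadjusted p = 0.625, adjusted p = 0.842) for OE-WD against CT-WD, which was -0.052 without OE-WD 4 (unadjusted p = 0.673). It was -0.030 (standard error 0.132, unadjusted p = 0.825, adjusted p = 0.949) for OE-CTD against CT-CTD. None of these differences exceeded the spread between libraries. Over the alternatives that leave out a library, the Insr log2 fold change of OE-CTD against CT-CTD ranged from -0.16 to 0.025, and without both OE libraries numbered 4 it was -0.16 (unadjusted p = 0.0539).

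Igf1r (ENSMUSG00000005533, chr7:67952827-68233668, plus strand) encodes the receptor for insulin-like growth factor. The CT libraries had 18.0, 17.7 and 17.9 CPM on CTD, and 17.6, 19.8 and 20.6 CPM on WD. The OE libraries had 16.3, 17.9, 23.7 and 22.8 CPM on CTD, and 20.3, 19.2, 25.1 and 21.3 CPM on WD. The CT-CTD libraries lay close together, and the OE libraries reached both below and above them. The highest values were those of OE-WD 3 and OE-CTD 3. Group means stood in the order CT-CTD, CT-WD, OE-CTD and OE-WD, with 17.9 ± 0.151 CPM (SD of 3 libraries) at the low end and 21.5 ± 2.57 CPM (SD of 4 libraries) at the high end, and neighbours overlapped at each step. The edgeR log2 fold change was 0.17 (standard error 0.131, unadjusted p = 0.218, adjusted p = 0.592) for OE-CTD against CT-CTD and 0.15 (standard error 0.131, unadjusted p = 0.262, adjusted p = 0.595) for OE-WD against CT-WD. With 1 library left out the former ranged from 0.077 without OE-CTD 3 to 0.26 without OE-CTD 1 (unadjusted p = 0.0569), and the latter from 0.068 without OE-WD 3 to 0.20 without OE-WD 2. The diet differences were 0.11 in CT and 0.094 in OE on the log2 scale, and the interaction was -0.016 (standard error 0.185, unadjusted p = 0.931, adjusted p = 0.996).

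Irs2 (ENSMUSG00000038894, chr8:10984681-11008458, minus strand) encodes an adaptor that the activated receptors phosphorylate and that binds PI3-kinase. Its level was 30.6, 29.8 and 30.4 CPM in the CT-CTD libraries, and 42.6, 45.5 and 167 CPM in those of CT-WD. Its level was 34.4, 40.7, 63.4 and 53.1 CPM in the OE-CTD libraries, and 42.3, 39.5, 49.0 and 58.6 CPM in those of OE-WD. CT-WD 3 was far above all other libraries, at 3.79 times the mean of the other 2 CT-WD libraries. The CT-CTD libraries were the 3 lowest of the 14 and lay within 1 CPM of each other. All CT-WD, all OE-CTD and all OE-WD libraries were above all CT-CTD libraries, while CT-WD, OE-CTD and OE-WD overlapped one another. The group means were 85.0 ± 70.9 CPM (SD of 3 libraries) in CT-WD, 47.9 ± 13.0 CPM (SD of 4 libraries) in OE-CTD, 47.4 ± 8.52 CPM (SD of 4 libraries) in OE-WD and 30.3 ± 0.399 CPM (SD of 3 libraries) in CT-CTD.

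In edgeR, Irs2 was higher in CT-WD than in CT-CTD, and its log2 fold change was 1.49 (standard error 0.395, unadjusted p = 0.00179, adjusted p = 0.427). All 3 CT-WD libraries were above all 3 CT-CTD libraries, and the adjusted p-value did not pass the threshold. Without CT-WD 3 the log2 fold change was 0.54 (unadjusted p = 0.0195, adjusted p = 0.930). Over all alternatives the adjusted p-value of this difference ranged from 0.000971 to 0.981, and the lowest value came from edgeR with no filter on low counts. With the replicate number as a block, CT-CTD and CT-WD libraries of the same number were treated as pairs, which the labels do not state. The edgeR log2 fold change was then 1.18 (unadjusted p = 0.0104, adjusted p = 0.578). Between OE-WD and OE-CTD the log2 fold change of Irs2 was -0.016 (standard error 0.335, unadjusted p = 0.963, adjusted p = 0.9999). The difference between the diet effects, the interaction, was -1.50 (standard error 0.515, unadjusted p = 0.0104, adjusted p = 0.825), and without CT-WD 3 it was -0.56 (unadjusted p = 0.0502, adjusted p = 0.999). With no filter on low counts the adjusted p-value of the interaction was 0.0495, in a range over the alternatives of 0.0495 to 0.999.

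Irs2 was lower in OE-WD than in CT-WD with all libraries, and the edgeR log2 fold change was -0.84 (standard error 0.358, unadjusted p = 0.0320, adjusted p = 0.250). Without CT-WD 3 the sign changed, to 0.10 (unadjusted p = 0.606, adjusted p = 0.906), so that the lower level in OE-WD rested on that library. Its call at an unadjusted p under 0.05 in edgeR was also lost without OE-WD 1 (unadjusted p = 0.0666) and without OE-WD 2 (unadjusted p = 0.0722), and DESeq2 gave an unadjusted p of 0.0505. Without CT-WD 1, where CT-WD 3 carries more weight, the log2 fold change was -1.17 and the adjusted p-value 0.0426, in a range over the alternatives of 0.0394 to 0.906. On CTD, Irs2 was higher in OE-CTD than in CT-CTD in 4 of 4 libraries, and the log2 fold change was 0.66 (standard error 0.370, unadjusted p = 0.0939, adjusted p = 0.419). Without CT-WD 3, which enters this comparison through the spread shared by the groups, the log2 fold change was 0.66 with an unadjusted p of 0.00200 and an adjusted p of 0.0555. The adjusted p-value of this difference ranged from 0.0555 to 0.675 over the alternatives.

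The normalization factor of CT-WD 3 was the third lowest of the 14, after those of OE-CTD 4 and OE-WD 4, at 0.945, next to 0.948 in CT-WD 2, and unlike theirs its share of mitochondrial counts, 9.66%, was the lowest of the 14. Its endothelial marker sum was 529 CPM, against 507 and 454 CPM in CT-WD 1 and CT-WD 2, and the marker Eng had 152 CPM in CT-WD 3 and 82.6 and 92.9 CPM in the others. Without Eng the other 9 markers summed to 377 CPM in CT-WD 3, between 424 CPM in CT-WD 1 and 361 CPM in CT-WD 2, so that the higher sum of CT-WD 3 was that of Eng. The part of these values in the Irs2 result was not tested.

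Irs1 (ENSMUSG00000055980, chr1:82233101-82291416, minus strand) encodes the paralogous adaptor. In CT-CTD the libraries had 14.3, 25.9 and 18.8 CPM, and in CT-WD they had 20.6, 18.0 and 45.8 CPM. In OE-CTD the values were 13.3, 18.2, 14.1 and 28.7 CPM, and in OE-WD they were 19.9, 16.2, 16.3 and 33.3 CPM. CT-WD 3 was again the highest library, at 2.375 times the mean of the other 2 CT-WD libraries, followed by OE-WD 4 and OE-CTD 4. Apart from these 3 libraries, the groups overlapped, and CT-CTD 2 was the next highest. The edgeR log2 fold change was 0.52 (standard error 0.372, unadjusted p = 0.186, adjusted p = 0.860) for CT-WD against CT-CTD, and -0.027 without CT-WD 3. For OE-WD against CT-WD it was -0.39 (standard error 0.345, unadjusted p = 0.270, adjusted p = 0.602), and 0.15 without CT-WD 3. It was farther from 0, at -0.69, without OE-WD 4 (unadjusted p = 0.0621) and -0.69 without both OE libraries numbered 4 (unadjusted p = 0.0409, adjusted p = 0.263). The interaction was -0.30 (standard error 0.493, unadjusted p = 0.548, adjusted p = 0.960), 0.24 without CT-WD 3 and -0.60 without OE-WD 4. In these 3 comparisons the sign of the Irs1 estimate depended on 1 library. The difference on CTD, OE-CTD against CT-CTD, was -0.091 (standard error 0.350, unadjusted p = 0.797, adjusted p = 0.940). With 1 library left out it ranged from -0.37 without OE-CTD 4 (unadjusted p = 0.297) to 0.16 without CT-CTD 2 (unadjusted p = 0.696), so its sign depended on 1 library here too.

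Pik3ca (ENSMUSG00000027665, chr3:32397671-32468486, plus strand) encodes a catalytic subunit of PI3-kinase. The CT libraries had 49.1, 48.6 and 50.1 CPM on CTD, and 54.0, 47.3 and 51.9 CPM on WD. The OE libraries had 54.3, 53.1, 54.2 and 63.4 CPM on CTD, and 55.2, 49.2, 52.0 and 55.1 CPM on WD. All 4 OE-CTD libraries were above all 3 CT-CTD libraries, OE-CTD 4 was the highest of the 14, and the other 3 OE-CTD libraries lay within the range of CT-WD and OE-WD. Group means were 56.3 ± 4.81 CPM (SD of 4 libraries) in OE-CTD, 52.9 ± 2.86 CPM (SD of 4 libraries) in OE-WD, 51.1 ± 3.43 CPM (SD of 3 libraries) in CT-WD and 49.3 ± 0.761 CPM (SD of 3 libraries) in CT-CTD. The edgeR log2 fold change of OE-CTD against CT-CTD was 0.19 (standard error 0.0809, unadjusted p = 0.0320, adjusted p = 0.255). Without OE-CTD 4 it was 0.13 (unadjusted p = 0.104), and without both OE libraries numbered 4 it was 0.13 (unadjusted p = 0.0929). The unadjusted p was also above 0.05 without CT-CTD 1 (0.0855), without CT-CTD 2 (0.0791), without CT-CTD 3 (0.0523), and with the replicate number as a block (0.105), and the call was lost in 7 of 23 alternatives. The log2 fold change was above 0 in all 23 alternatives, from 0.13 to 0.22, and the adjusted p ranged from 0.226 to 0.545. On WD, OE-WD differed from CT-WD by 0.050 (standard error 0.0807, unadjusted p = 0.548, adjusted p = 0.802), and the interaction was -0.14 (standard error 0.114, unadjusted p = 0.235, adjusted p = 0.915).

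Pik3ca moved with the slow fibre markers across the libraries (Pearson r = 0.655, Spearman rho = 0.736, and r = 0.812 without the 2 farthest libraries, over 14 libraries that share 4 groups, the farthest being those farthest from the median of the marker sum). The 8 slow fibre markers summed to 5773, 4717 and 6516 CPM in CT-CTD and 6726, 6538, 6354 and 7468 CPM in OE-CTD. All 8 were higher in OE-CTD than in CT-CTD, 3 of them at an unadjusted p under 0.05, with Atp2a2 the most abundant and none at 0. In CT-WD the sums were 5440.1, 5675 and 6281 CPM, and in OE-WD they were 6674, 6599.6, 5836 and 6828 CPM. In OE-WD against CT-WD 2 of the 8 markers were higher, both at an unadjusted p under 0.05, and 6 were lower (median log2 fold change -0.030). OE-CTD 4 had the highest slow fibre sum as it had the highest Pik3ca level, and the part of these markers in the Pik3ca difference was not tested.

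Pik3r1 (ENSMUSG00000041417, chr13:101680563-101768217, minus strand) encodes a regulatory subunit of PI3-kinase, which binds phosphorylated Irs proteins. Its level was 28.9, 17.8 and 21.3 CPM in the CT-CTD libraries, and 30.6, 19.3 and 15.2 CPM in those of CT-WD. Its level was 20.0, 23.5, 24.4 and 19.3 CPM in the OE-CTD libraries, and 19.4, 24.8, 18.2 and 24.2 CPM in those of OE-WD. CT-WD 1 and CT-CTD 1 were the highest libraries and CT-WD 3 the lowest, so that CT-WD held both ends of the range. Both OE groups lay inside the range of the CT groups. The group means were within 1.046-fold of each other, from 22.6 ± 5.67 CPM (SD of 3 libraries) in CT-CTD to 21.7 ± 3.30 CPM (SD of 4 libraries) in OE-WD. In edgeR the log2 fold change was -0.058 (standard error 0.222, unadjusted p = 0.796, adjusted p = 0.981) for CT-WD against CT-CTD, -0.010 for OE-WD against OE-CTD, -0.0060 for OE-WD against CT-WD and -0.054 for OE-CTD against CT-CTD. With 1 library left out the OE-WD against CT-WD value was lowest without CT-WD 3, at -0.21, and highest without CT-WD 1, at 0.33, and the OE-CTD against CT-CTD value ranged from -0.20 without CT-CTD 2 to 0.15 without CT-CTD 1. Without CT-WD 1 the Pik3r1 log2 fold change of CT-WD against CT-CTD was -0.39 (unadjusted p = 0.0648). Across libraries Pik3r1 rose with the macrophage marker sum (Pearson r = 0.664, Spearman rho = 0.723, and r = 0.753 without the 2 farthest libraries), which was highest within CT in CT-CTD 1 and CT-WD 1, and the part of these markers in its level was not tested.

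Pdpk1 (ENSMUSG00000024122, chr17:24073680-24150924, minus strand) encodes the kinase that phosphorylates Akt in its activation loop. In CT-CTD the libraries had 28.8, 35.9 and 37.4 CPM, and in CT-WD they had 31.9, 29.0 and 36.9 CPM. In OE-CTD the values were 27.0, 29.3, 28.4 and 40.5 CPM, and in OE-WD they were 29.0, 29.9, 29.6 and 44.8 CPM. OE-WD 4 and OE-CTD 4 were the highest libraries, and the other 6 OE libraries lay within 4 CPM of each other, at the low end of the range of CT or below it. The group means overlapped, from 34.0 ± 4.61 CPM (SD of 3 libraries) in CT-CTD to 31.3 ± 6.21 CPM (SD of 4 libraries) in OE-CTD. The edgeR log2 fold change of OE-CTD against CT-CTD was -0.12 (standard error 0.168, unadjusted p = 0.484, adjusted p = 0.796). Without both OE libraries numbered 4 it was -0.27 (unadjusted p = 0.0257, adjusted p = 0.179). For OE-WD against CT-WD it was 0.030 (standard error 0.169, unadjusted p = 0.859, adjusted p = 0.951), and -0.14 without OE-WD 4 (unadjusted p = 0.337), so that its sign depended on that library.

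Akt1 (ENSMUSG00000001729, chr12:112653821-112674884, minus strand) encodes a kinase with roles in growth and survival. The CT libraries had 49.3, 44.1 and 57.6 CPM on CTD, and 53.3, 47.1 and 55.9 CPM on WD. The OE libraries had 57.4, 57.0, 49.1 and 56.1 CPM on CTD, and 52.0, 55.7, 56.5 and 55.7 CPM on WD. CT-CTD held both the highest and the lowest of the 14 libraries, and OE-CTD 3 was low for its group. Means overlapped from 55.0 ± 2.01 CPM (SD of 4 libraries) in OE-WD to 50.3 ± 6.84 CPM (SD of 3 libraries) in CT-CTD. The edgeR log2 fold change was 0.13 (standard error 0.0955, unadjusted p = 0.206, adjusted p = 0.580) for OE-CTD against CT-CTD, and 0.23 without CT-CTD 3 (unadjusted p = 0.0304, adjusted p = 0.360), but 0.040 without CT-CTD 2 (unadjusted p = 0.698). It was 0.078 (standard error 0.0954, unadjusted p = 0.429, adjusted p = 0.725) for OE-WD against CT-WD. Akt1 moved with the slow fibre marker sum across libraries (Pearson r = 0.721, Spearman rho = 0.538, and r = 0.563 without the 2 farthest libraries), whose part in its level was not tested.

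Akt2 (ENSMUSG00000004056, chr7:27591552-27640826, plus strand) encodes the Akt kinase through which insulin chiefly raises glucose uptake in muscle and fat. Its level was 259, 291 and 257 CPM in the CT-CTD libraries, and 229.6, 312 and 328 CPM in those of CT-WD. Its level was 254, 247, 232 and 289 CPM in the OE-CTD libraries, and 246, 225, 231 and 275 CPM in those of OE-WD. CT-WD 3 and CT-WD 2 were the highest of the 14 libraries and OE-WD 2 the lowest, followed by CT-WD 1. CT-WD and OE-WD overlapped through CT-WD 1. Group means were 290.0 ± 52.9 CPM (SD of 3 libraries) in CT-WD, 269 ± 19.1 CPM (SD of 3 libraries) in CT-CTD, 255 ± 24.0 CPM (SD of 4 libraries) in OE-CTD and 244 ± 22.4 CPM (SD of 4 libraries) in OE-WD, and neighbours overlapped. The edgeR log2 fold change of OE-WD against CT-WD was -0.25 (standard error 0.119, unadjusted p = 0.0530, adjusted p = 0.303). Without CT-WD 1 it was -0.39 (unadjusted p = 0.00200, adjusted p = 0.0313), and without CT-WD 3 it was -0.15 (unadjusted p = 0.257). The unadjusted p was under 0.05 in 6 of 23 alternatives, which were, beside the fit without CT-WD 1, those without OE-CTD 4 (0.0440), without OE-WD 4 (0.0233) and without both (0.0172), edgeR with no filter on low counts (0.0327), and DESeq2 (0.0480, adjusted p = 0.278). Over the alternatives the log2 fold change ranged from -0.39 to -0.15 and the adjusted p from 0.0313 to 0.750.

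The Akt2 difference on diet in CT was 0.11 (standard error 0.127, unadjusted p = 0.410, adjusted p = 0.926), and 0.25 without CT-WD 1 (unadjusted p = 0.0399, adjusted p = 0.390) but 0.0094 without CT-WD 3 (unadjusted p = 0.945). The interaction was -0.17 (standard error 0.169, unadjusted p = 0.321, adjusted p = 0.933), and -0.32 without CT-WD 1 (unadjusted p = 0.0409, adjusted p = 0.444) but -0.075 without CT-WD 3 (unadjusted p = 0.666). Akt2 fell as the fibroblast marker sum rose across libraries (Pearson r = -0.794, Spearman rho = -0.815, and r = -0.867 without the 2 farthest libraries), and CT-WD 1 had a fibroblast sum of 1339 CPM, in the range of OE-WD. All 6 fibroblast markers were higher in OE-WD than in CT-WD, 3 of them at an unadjusted p under 0.05, with Col1a2 the most abundant by its mean over the 14 libraries and none at 0. Akt2 also fell as the normalization factor rose (Pearson r = -0.791, Spearman rho = -0.815, and r = -0.942 without the 2 farthest libraries) and rose with the muscle fibre marker sum (Pearson r = 0.694, Spearman rho = 0.745, and r = 0.802 without the 2 farthest libraries). CPM is divided by the normalization factor, so a negative r against it is in part built in. The part of these measures in the Akt2 difference was not tested.

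**Figure D2:**
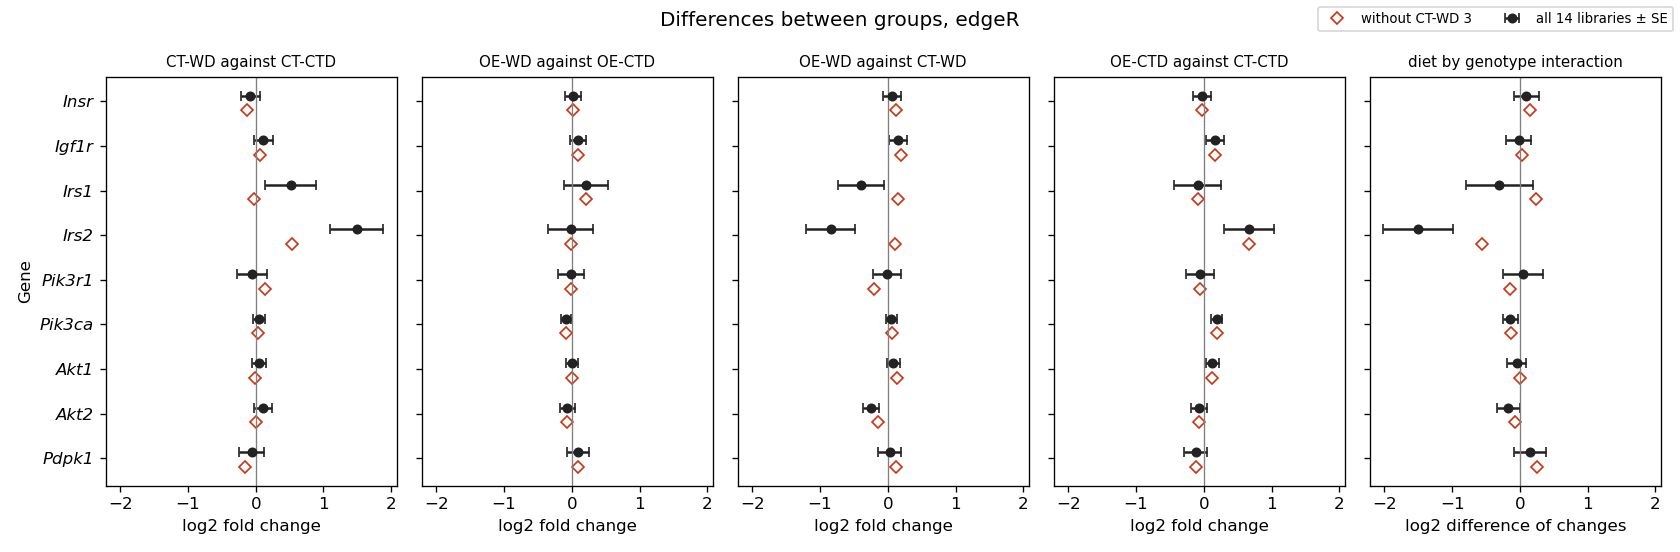
edgeR log2 fold change of each member on the x axis, 1 panel per comparison, with all 14 libraries (filled points, bars ± standard error) and without CT-WD 3 (open points). For OE-WD against CT-WD the Irs2 point moves from -0.84 to 0.10 without CT-WD 3, and in OE-WD against OE-CTD all members lie between -0.089 and 0.21.

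No member was called for the diet difference in OE. The OE-WD against OE-CTD log2 fold change was largest for Irs1, 0.21 (standard error 0.324, unadjusted p = 0.522, adjusted p = 0.9999), and with all libraries the 9 values lay between -0.089 and 0.21. With 1 library left out the Irs1 value ranged from -0.081 without OE-WD 4 to 0.49 without OE-CTD 4, so that its size and sign depended on 1 library. The same libraries set the ranges of Insr, -0.10 to 0.15, and of Pdpk1, -0.084 to 0.24. The standard errors with all libraries ran from 0.0745 for Pik3ca to 0.335 for Irs2. The model takes the spread from all 4 groups, so CT-WD 3, which is in neither group compared, entered these errors. Without it the standard error of Irs2 was 0.160 (log2 fold change -0.016, unadjusted p = 0.919) and that of Irs1 was 0.267. The lowest unadjusted p-value among the members in this comparison was 0.251, for Pik3ca.

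The members did not move as a block across the libraries. Over the 36 pairs of members, correlations of log2 CPM over the 14 libraries had a median Pearson r of 0.234, from -0.609 for Pik3r1 with Akt2 to 0.890 for Insr with Pdpk1, and 11 of the 36 were below 0. The libraries share groups and normalization, so these values describe how members moved together and test nothing. The 2 farthest libraries are those farthest from the median of the member named first. Insr and Pdpk1 had Pearson r = 0.890, Spearman rho = 0.710, and r = 0.753 without the 2 farthest libraries. Irs1 and Pdpk1 had Pearson r = 0.814, Spearman rho = 0.833, and r = 0.830 without the 2 farthest libraries, and r = 0.894 without CT-WD 3. These were the 2 pairs with r above 0.8. Insr, Pdpk1 and Irs1 were all high in OE-CTD 4 and OE-WD 4, the libraries with the highest muscle fibre sums, and against that sum they had Pearson r of 0.775, 0.727 and 0.631, which became 0.342, 0.348 and 0.443 over the other 12 libraries, a choice made after the data were seen. Against the normalization factor, lowest in the same libraries, they had Pearson r of -0.796, -0.766 and -0.726, and -0.418, -0.472 and -0.629 over those 12. Both relations were thus weaker without OE-CTD 4 and OE-WD 4, and the part of either measure in these levels was not tested. As CPM is divided by the normalization factor, a negative r against it is in part built in. The adaptors Irs1 and Irs2 had Pearson r = 0.652, Spearman rho = 0.314, and r = -0.00165 without the 2 farthest libraries, and r = 0.243 without CT-WD 3. The paralogues Insr and Igf1r had Pearson r = 0.370, Spearman rho = 0.323, and r = 0.114 without the 2 farthest libraries. Akt1 and Akt2 had Pearson r = -0.257, Spearman rho = -0.147, and r = 0.239 without the 2 farthest libraries. The PI3-kinase subunits Pik3r1 and Pik3ca had Pearson r = -0.0224, Spearman rho = 0.121, and r = 0.0648 without the 2 farthest libraries.

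The genes most like each member were read off as the 3 with the highest Pearson r in log2 CPM over the 14 libraries, among 12745 other genes with a mean of at least 1 CPM. For Insr they were Atp6v0a2 (0.949), Prpf8 (0.942) and Rapgef1 (0.939), and for Igf1r Nepro (0.769), Tpcn2 (0.767) and Dedd2 (0.766). For Irs1 they were Ankrd44 (0.928), Zfp568 (0.920) and Xirp2 (0.914). For Irs2 they were Zbtb21 (0.923), Hspa1b (0.922) and Maff (0.919), and without CT-WD 3 these values became 0.708, 0.714 and 0.781. The likeness of Irs2 to these genes was thus in part that of CT-WD 3, and for Irs1 the values without that library were 0.893, 0.860 and 0.843. For Pik3r1 the closest genes were Slc35g1 (0.916), B4galt1 (0.893) and Il1rl2 (0.876), and for Pik3ca Atf6 (0.889), Ppm1b (0.866) and Dusp18 (0.863). For Akt1 they were Col13a1 (0.865), Kank4 (0.845) and Gper1 (0.810). Akt2 was closest to Egln2 (0.965), Agpat1 (0.955) and Elob (0.955), of which Egln2 lies 425 kb from Akt2 on chromosome 7. Pdpk1 was closest to Ints1 (0.966), Prrc2b (0.955) and Aff4 (0.954). The r values were lowest for Igf1r, and no member was among the 3 genes closest to another.

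Since both adaptors were highest in CT-WD 3, their promoters were read from the RefSeq promoter table (GRCm38.p6, windows of 300 bases around the start of a transcript), and the windows of Irs1 and Irs2 are shown. For 8 of the 9 members the table had a window, 14 in all, and Insr had none. The E-box CACGTG, a motif that reads the same on both strands and that Myc and many other factors can bind, and the FOXO motif GTAAACA, on both strands, were searched for, both chosen after the data were seen. CACGTG was in 7.15% of all 32851 windows of the table and in 2 of the 14 member windows, 1 of Irs1 and 1 of Irs2. GTAAACA was in 3.65% of all windows and in 1 of the 14, of Akt1 at chr12:112674835-112675134. The Irs1 window, chr1:82291390-82291689 on the minus strand, has CACGTG from base 136, and the Irs2 window, chr8:11008880-11009179 on the minus strand, has it from base 207, counted from the 5′ end. The longest runs of bases that the 2 windows share are 10 bases long, and there are 2 of them. GTCACGTGTT, from base 134 of Irs1 and base 205 of Irs2, holds the motif, and TGTTTTGCTC, from base 140 of Irs1 and base 214 of Irs2, does not. Capitals mark CACGTG. A match is a description of the letters, and binding was not analysed here.
Irs1: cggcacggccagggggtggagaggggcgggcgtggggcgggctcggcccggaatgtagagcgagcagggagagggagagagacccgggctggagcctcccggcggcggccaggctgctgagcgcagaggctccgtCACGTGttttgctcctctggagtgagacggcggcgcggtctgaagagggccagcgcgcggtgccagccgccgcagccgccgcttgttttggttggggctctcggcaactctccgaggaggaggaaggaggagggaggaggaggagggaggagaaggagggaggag
Irs2: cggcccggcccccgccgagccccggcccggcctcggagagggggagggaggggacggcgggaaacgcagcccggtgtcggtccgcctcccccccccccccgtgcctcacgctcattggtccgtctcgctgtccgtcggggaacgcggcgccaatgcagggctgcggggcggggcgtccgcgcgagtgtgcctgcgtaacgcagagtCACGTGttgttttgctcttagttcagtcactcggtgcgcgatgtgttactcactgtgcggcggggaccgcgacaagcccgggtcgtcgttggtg

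The other genes of the pathway were taken from lists of 71 genes, of which 66 were tested. By edgeR with unadjusted p under 0.05, 2 of the 66 were higher and 3 lower in CT-WD than in CT-CTD, 0 higher and 1 lower in OE-WD than in OE-CTD, 9 higher and 5 lower in OE-WD than in CT-WD, and 6 higher and 7 lower in OE-CTD than in CT-CTD. The interaction had 3 above 0 and 2 below 0. In the order given these were 7.58%, 1.52%, 21.2%, 19.7% and 7.58% of the 66, beside 7.28%, 4.2%, 16.9%, 15.9% and 5.92% of all tested genes, and nothing particular to the lists is read from these shares. With adjusted p under 0.05 there were 1 higher and 1 lower in OE-WD than in CT-WD, 0 higher and 3 lower in OE-CTD than in CT-CTD, and 0 in the other 3 comparisons. These were 3.03% and 4.55% of the 66, beside 0.725% and 2.67% of all tested genes. DESeq2 with adjusted p under 0.05 called 4 of the 66 (6.06%) for OE-WD against CT-WD, 6 (9.09%) for OE-CTD against CT-CTD and also 0 in the other 3, beside 3.71% and 5.17% of all genes. Genes with an unadjusted p under 0.05 are named here by list, with edgeR's values.

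Among ligands and their binding proteins, 8 of 12 were tested. Igfbp6, a secreted binding protein, was higher in OE-CTD than in CT-CTD with a log2 fold change of 0.95 (unadjusted p = 0.00146, adjusted p = 0.0528), and in OE-WD than in CT-WD with 0.57 (unadjusted p = 0.0331, adjusted p = 0.254), which was 0.34 without CT-WD 3 (unadjusted p = 0.173). Igfbp4 was higher in OE-CTD than in CT-CTD, at 0.53 (unadjusted p = 0.00400, adjusted p = 0.0909). In OE-WD against CT-WD, Igfbp5 was higher, at 0.58 (unadjusted p = 0.0207, adjusted p = 0.213) and 0.34 without CT-WD 3 (unadjusted p = 0.122), and Igfbp3 was lower, at -0.50 (unadjusted p = 0.0153, adjusted p = 0.186). Igf2r, a receptor that clears its ligand, was lower in OE-CTD than in CT-CTD, at -0.20 (unadjusted p = 0.0276, adjusted p = 0.241). The diet comparisons had no gene of this list at an unadjusted p under 0.05 by edgeR or by DESeq2.

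Among other adaptors and the Ras to MAPK arm, 18 of 19 were tested. Nras, a Ras GTPase, had 32.5, 35.7 and 38.5 CPM in CT-CTD, 26.6, 27.2 and 30.6 CPM in CT-WD, 27.0, 26.5, 24.2 and 27.0 CPM for OE-CTD and 23.9, 28.7, 26.9 and 28.5 CPM for OE-WD. The CT-CTD libraries were above all others. The log2 fold change of OE-CTD against CT-CTD was -0.44 (unadjusted p = 0.000182, adjusted p = 0.0197), and the adjusted p stayed under 0.05 in 18 of 23 alternatives, with a range of 0.00109 to 0.120. It was over 0.05 without CT-CTD 2 (0.0807), CT-CTD 3 (0.120), OE-CTD 2 (0.0546) or OE-CTD 3 (0.0645). Nras was also lower in CT-WD than in CT-CTD, at -0.34 (unadjusted p = 0.00326, adjusted p = 0.475), and its interaction was 0.38 (unadjusted p = 0.00933, adjusted p = 0.825). Shc1, an adaptor that leads to Ras, was higher in OE-WD than in CT-WD, at 0.34 (unadjusted p = 0.00320, adjusted p = 0.110), and in OE-CTD than in CT-CTD, at 0.21 (unadjusted p = 0.0486, adjusted p = 0.310). Grb2, which Shc1 binds, was higher in OE-WD than in CT-WD, at 0.21 (unadjusted p = 0.0205, adjusted p = 0.212). Map2k1, a kinase of the arm, was lower in OE-CTD than in CT-CTD, at -0.31 (unadjusted p = 0.00530, adjusted p = 0.105).

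Among other PI3-kinase subunits and the mTORC2 genes, all 9 were tested. Pik3cd, a catalytic subunit found mostly in leukocytes, was lower in CT-WD than in CT-CTD, at -0.42 (unadjusted p = 0.00233, adjusted p = 0.427), and higher in OE-WD than in CT-WD, at 0.26 (unadjusted p = 0.0270, adjusted p = 0.234), with an interaction of 0.37 (unadjusted p = 0.0268, adjusted p = 0.834). Pik3r2, a regulatory subunit, was higher in OE-WD than in CT-WD, at 0.24 (unadjusted p = 0.0336, adjusted p = 0.255). Rictor, a core subunit of mTORC2, was lower in OE-WD than in CT-WD, at -0.55 (unadjusted p = 0.0136, adjusted p = 0.178). It had 17.8, 22.6 and 21.7 CPM in CT-CTD, 19.4, 24.3 and 38.4 CPM in CT-WD, 14.8, 15.2, 15.6 and 19.8 CPM for OE-CTD and 23.8, 15.2, 17.0 and 18.5 CPM for OE-WD, CT-WD 3 was the highest library, and the log2 fold change was -0.23 without CT-WD 3 (unadjusted p = 0.207).

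Among genes that restrain the pathway, all 15 were tested. Inppl1, a lipid phosphatase, had 134, 132 and 139 CPM in CT-CTD, 125, 111 and 106 CPM in CT-WD, 152, 154, 149 and 164 CPM for OE-CTD and 133, 163, 143 and 158 CPM for OE-WD. All OE-WD libraries were above all CT-WD libraries. Its log2 fold change of OE-WD against CT-WD was 0.39 (unadjusted p = 0.000349, adjusted p = 0.0490), and the adjusted p stayed under 0.05 in 5 of 23 alternatives, with a range of 0.00207 to 0.571. Among the alternatives that leave out 1 library it stayed under 0.05 without CT-WD 1, OE-CTD 4 or OE-WD 1, and was highest without CT-WD 3 (0.224). Inppl1 was also lower in CT-WD than in CT-CTD, at -0.24 (unadjusted p = 0.0176, adjusted p = 0.595), and higher in OE-CTD than in CT-CTD, at 0.20 (unadjusted p = 0.0319, adjusted p = 0.254). Grb14, an adaptor that inhibits the receptor, was higher in OE-WD than in CT-WD, at 0.47 (unadjusted p = 0.00482, adjusted p = 0.122), and in OE-CTD than in CT-CTD, at 0.45 (unadjusted p = 0.00612, adjusted p = 0.114). Its relative Grb10 was higher in OE-CTD than in CT-CTD, at 0.40 (unadjusted p = 0.0221, adjusted p = 0.218). The phosphatase Inpp5k was lower in that comparison, at -0.25 (unadjusted p = 0.0122, adjusted p = 0.161).

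In the same list, the phosphatase Inpp5d was higher in CT-WD than in CT-CTD, at 0.54 (unadjusted p = 0.0179, adjusted p = 0.595), and the pseudokinase Trib2 was higher in OE-WD than in CT-WD, at 0.33 (unadjusted p = 0.0357, adjusted p = 0.261). Socs3, which targets activated receptors and Irs proteins, had 7.79, 3.18 and 1.51 CPM in CT-CTD, 9.69, 3.53 and 7.91 CPM in CT-WD, 8.74, 9.27, 11.9 and 3.11 CPM for OE-CTD and 3.46, 5.65, 3.57 and 2.77 CPM for OE-WD. Its values spread within every group. It was lower in OE-WD than in OE-CTD, at -1.10 (unadjusted p = 0.0274, adjusted p = 0.9999), and its interaction was -1.86 (unadjusted p = 0.0160, adjusted p = 0.831). The diet value was -0.87 (unadjusted p = 0.0913) without OE-CTD 3, and its unadjusted p was under 0.05 in 9 of 14 fits with 1 library left out.

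Among Akt substrates and genes further downstream, all 16 were tested. Eif4ebp1, which restrains translation until mTORC1 phosphorylates it, had 48.9, 48.0 and 51.6 CPM in CT-CTD, 42.7, 61.4 and 61.5 CPM in CT-WD, 40.6, 32.5, 31.3 and 33.3 CPM for OE-CTD and 34.7, 32.0, 36.1 and 34.3 CPM for OE-WD. All 8 OE libraries were below all 6 CT libraries. The log2 fold change was -0.69 (unadjusted p = 3.34e-05, adjusted p = 0.0276) for OE-WD against CT-WD and -0.52 (unadjusted p = 0.000496, adjusted p = 0.0318) for OE-CTD against CT-CTD. The adjusted p stayed under 0.05 in 14 and 15 of 23 alternatives, with ranges of 9.88e-05 to 0.571 and 0.00383 to 0.144. On WD it was over 0.05 without CT-WD 2 (0.0951), CT-WD 3 (0.123), OE-WD 2 (0.0883), OE-WD 3 (0.0630) or OE-WD 4 (0.0683). On CTD it was over 0.05 without any 1 of the 3 CT-CTD libraries or without OE-CTD 2, 3 or 4, and the highest of these values was 0.144, without CT-CTD 3.

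Tbc1d1, a Rab regulator that Akt phosphorylates on the way to glucose transport, had 109, 115 and 127 CPM in CT-CTD, 69.7, 115 and 105 CPM in CT-WD, 72.5, 65.0, 71.8 and 73.0 CPM for OE-CTD and 86.3, 68.8, 85.3 and 79.6 CPM for OE-WD. All OE-CTD libraries were below all CT-CTD libraries, and CT-WD 1 was low for its group. The log2 fold change of OE-CTD against CT-CTD was -0.73 (unadjusted p = 6.31e-05, adjusted p = 0.0112), and the adjusted p stayed under 0.05 in 21 of 23 alternatives, with a range of 6.78e-05 to 0.0729 whose highest value came without CT-CTD 3. Its interaction was 0.46 (unadjusted p = 0.0299, adjusted p = 0.834), and without CT-WD 1 it was 0.27 (unadjusted p = 0.0693). Foxo1, a transcription factor that Akt keeps in the cytoplasm, had 27.6, 16.2 and 26.0 CPM in CT-CTD, 22.7, 63.4 and 44.6 CPM in CT-WD, 16.5, 18.7, 20.7 and 23.1 CPM for OE-CTD and 23.1, 19.0, 20.4 and 23.1 CPM for OE-WD. CT-WD 2 and CT-WD 3 were above all other libraries, and CT-WD 1 was not. Foxo1 was higher in CT-WD than in CT-CTD, at 0.90 (unadjusted p = 0.00461, adjusted p = 0.507), and lower in OE-WD than in CT-WD, at -1.02 (unadjusted p = 0.000965, adjusted p = 0.0694), with an interaction of -0.78 (unadjusted p = 0.0458, adjusted p = 0.842). CT-WD 2 carried much of this, and without it the values were 0.53 (unadjusted p = 0.0514), -0.65 (unadjusted p = 0.0144) and -0.41 (unadjusted p = 0.216). Rheb, the GTPase that activates mTORC1, was lower in OE-WD than in CT-WD, at -0.25 (unadjusted p = 0.00893, adjusted p = 0.153). Slc2a4, the insulin-responsive glucose transporter, was lower in OE-CTD than in CT-CTD, at -0.22 (unadjusted p = 0.0289, adjusted p = 0.246).

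The differences named from the lists, 38 in 24 genes, were fitted again with each library left out in turn, a choice made after the data were seen. Their signs held in all 14 fits, and 16 of the 38 kept an unadjusted p under 0.05 in all 14. Without CT-WD 3, 7 of the 14 named for OE-WD against CT-WD were over it, namely Igfbp5, Igfbp6, Grb2, Pik3r2, Pik3cd, Rictor and Rheb. So were Inppl1 in CT-WD against CT-CTD and the interactions of Pik3cd and Foxo1. The other 2 lost for OE-WD against CT-WD in some fit were Igfbp3, without CT-WD 1, and Trib2, which held in 10 of 14. In the diet comparisons, Inpp5d was lost without CT-CTD 2 or CT-WD 1, Foxo1 without CT-WD 2, and Socs3 in OE without OE-CTD 2, OE-CTD 3 or any OE-WD library but OE-WD 2. Among the interactions, Foxo1 held in 4 of 14 fits, Tbc1d1 in 9 and Pik3cd in 10, and Nras and Socs3 held in all. For OE-CTD against CT-CTD, 7 of 13 held in all 14 fits, namely Igfbp4, Igfbp6, Nras, Inpp5k, Grb14, Tbc1d1 and Eif4ebp1. Of the others, Map2k1 held in 13, Igf2r, Inppl1, Grb10 and Slc2a4 in 10 each, and Shc1 in 4.

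Several of these genes moved with the fibroblast or macrophage markers. The 6 fibroblast markers summed to 553, 484 and 397 CPM in CT-CTD, 1339, 411 and 403 CPM in CT-WD, 1216, 1447, 1312 and 811 CPM in OE-CTD and 917, 2243, 1229.9 and 971 CPM in OE-WD, with none at 0. CT-WD 1 thus lay with the OE libraries, apart from the other CT libraries. All 6 were higher in OE-CTD than in CT-CTD, each at an unadjusted p under 0.05, and the most abundant was Dcn in 8 libraries, Col1a2 in 5 and Col1a1 in 1. Against this sum, over the 14 libraries, Igfbp6 had Pearson r = 0.971, Spearman rho = 0.982, and r = 0.967 without the 2 farthest libraries. The other genes named from the lists with a Pearson r above 0.7 or below -0.7 were Igfbp4 (0.908), Shc1 (0.870), Tbc1d1 (-0.916), Eif4ebp1 (-0.846), Rheb (-0.811), Rictor (-0.751), Inpp5k (-0.737) and Slc2a4 (-0.726). The measures and the limit were chosen after the data were seen. Against the macrophage marker sum, the genes over the same limit were Igfbp4 (0.947), Igfbp6 (0.907), Tbc1d1 (-0.868), Slc2a4 (-0.780), Inpp5k (-0.743), Shc1 (0.736) and Nras (-0.709, and -0.358 without the 2 farthest libraries). All 8 macrophage markers were higher in OE-CTD than in CT-CTD, 7 of them at an unadjusted p under 0.05, with none at 0 and Lyz2 the most abundant in every library. Against the slow fibre sum Map2k1 alone was over the limit (-0.754), and against the muscle fibre and endothelial sums no gene was, over all 14 libraries. Without OE-CTD 4 and OE-WD 4, the 2 libraries farthest from the median muscle fibre sum, several genes were over it against that sum. Those above 0.7 were Eif4ebp1 (0.831), Tbc1d1 (0.760), Foxo1 (0.747) and Rictor (0.705). Those below -0.7 were Grb14 (-0.828), Inppl1 (-0.800), Shc1 (-0.793) and Igfbp6 (-0.749). Without the 2 libraries farthest in the slow fibre sum, Map2k1 had -0.572 and Igfbp3 -0.701. The part of these markers in the differences was not tested.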

How the data were processed

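Polyadenylated RNA of skeletal muscle was sequenced in 14 libraries. The authors deposited a count of reads per gene for 54532 Ensembl genes, by the processing notes from HISAT2 2.0.5 on mm10 and featureCounts 1.5.0-p3, and the authors also deposited FPKM values, whose implied library totals were 79.9% to 98.0% of the summed counts. Counts were normalized by TMM in edgeR 4.0.16 (R 4.3.3), filtered by filterByExpr and tested by the quasi-likelihood test in a model of 4 group means over all 14 libraries, with Benjamini-Hochberg adjustment over 15458 genes. The biological coefficient of variation was 17.0%. Levels are CPM with TMM scaling, and log2 CPM used a prior count of 2. The 23 alternatives were RLE normalization, DESeq2 1.42.0, no filter on low counts, the groups of the comparison alone, the replicate number as a block, limma 3.58.1 on log2(FPKM + 1) and log2(FPKM + 0.1) with a mean FPKM of at least 0.5 and on log2(FPKM + 1) with no filter, each library left out, and both OE libraries numbered 4 left out, the last chosen after the data were seen. Across genes, deviations from the group mean correlated between CT-CTD and CT-WD libraries of the same number with r of 0.385, 0.123 and 0.203, all over 0.1. On this check alone these numbers were treated as pairs in the replicate block. Deviations within a group cancel out, so a likeness of the libraries numbered 1 alone would also raise the other values. The check thus cannot show that numbers 2 and 3 are pairs. Between the genotypes r was at most 0.0465, so the numbers were not read as pairs between genotypes. In OE it was 0.0711, 0.138, 0.142 and 0.338 for replicate numbers 1 to 4. It was thus not over 0.1 for every number in OE, and the model of 4 group means used no pairs. The other pathway genes named are those of each list with an unadjusted p under 0.05, and the genes most like a member are the 3 with the highest Pearson r. The members and lists were chosen with earlier results of these data known, and 1 gene first listed is not reported here. The transgene's own reads were not analysed here.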

Additional observations from a re-analysis of the deposited data

Results flagged for a closer look

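In groups of 4 libraries, the distance of the highest or lowest library from the nearest other, as a share of the group's range, was compared with Dixon's critical value at the 95% level for 18 groups (9 members in both OE groups). Chance alone puts about 1 in 20 independent groups above it, and 3 of the 18 were above. The 18 groups share the same libraries and are not independent, so this rate is no measure for their number. Pdpk1 in OE-WD 4 had a share of 0.943, Pik3ca in OE-CTD 4 had 0.883, both from high values, and Akt1 in OE-CTD 3 had 0.845, from a low value. Groups of 3 were not tested, so the high Irs2 value of CT-WD 3 was not part of this comparison.

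The edgeR interaction of Irs2 had a log2 value of -1.50 (unadjusted p = 0.0104) and was not called with the adjusted p (0.825). All 3 CT-WD libraries were above all 3 CT-CTD libraries, and OE-WD and OE-CTD overlapped. Without CT-WD 3 the value was -0.56 and the unadjusted call was lost (unadjusted p = 0.0502, adjusted p = 0.999).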

How the results depend on the processing

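The 45 member log2 fold changes (9 members, 5 comparisons) gave 1026 values under the alternatives, of which 907 kept their direction, side of the unadjusted threshold and size within 1 standard error of the value with all libraries. Another 18 lost a call, 18 gained one, 82 changed sign or size without a call, and 1 called value changed sign, Irs2 in OE-WD against CT-WD, to 0.10 without CT-WD 3, in a range of -1.17 to 0.10 with 1 library left out. Fitting only the groups of the comparison was not run for the interaction, which uses all groups.

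With no filter on low counts, members at an adjusted p under 0.05 became 1 in CT-WD against CT-CTD, 1 in OE-WD against CT-WD and 1 in the interaction (from 0 each), and members at an unadjusted p under 0.05 became 2 in CT-WD against CT-CTD and 2 in OE-WD against CT-WD (from 1 each). Of all genes, 0.333%, 2.01% and 0.104% were then called with adjusted p-values in these 3 comparisons, and 5.58% and 11.3% with unadjusted p-values in the diet comparison and the genotype comparison. In OE-WD against CT-WD the unadjusted count, 1 with all libraries, was 0 with only the groups of the comparison (13.9% of all genes), 0 with the replicate block (8.59%), 0 in each of the 3 limma fits (17.9%, 18% and 11%) and 3 without both OE libraries numbered 4 (17.6%). In OE-CTD against CT-CTD it was 2 with only the groups of the comparison (17.4% of all genes) and 3 with the replicate block (20.7%), from 1. The block gained Irs1, Irs2 and Pdpk1 there and lost Pik3ca, and libraries of the same number in these groups had deviations with r of 0.0465, -0.113 and -0.122, so the numbers did not pair them. In the interaction it was 0 in limma on log2(FPKM + 1) with and without a filter (5.89% and 4.65% of all genes), from 1. The cause was not tested. With 1 library left out, the unadjusted count was 1 to 2 in CT-WD against CT-CTD and 0 to 2 in both genotype comparisons and in the interaction, and the adjusted count was 0 to 2 in OE-WD against CT-WD. In the same fits the unadjusted share of all genes was 5.02% to 12.1% in CT-WD against CT-CTD, 10% to 26% in OE-WD against CT-WD, 11.6% to 17.9% in OE-CTD against CT-CTD and 4.54% to 10.7% in the interaction. The adjusted count of 2 came without CT-WD 1, where the share was highest, with 26% of all genes called unadjusted and 9.47% adjusted.

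Among all tested genes, those at an adjusted p under 0.05 numbered 0 in CT-WD against CT-CTD by edgeR and 35 by DESeq2, 1 and 1 in OE-WD against OE-CTD, 112 and 573 in OE-WD against CT-WD, 413 and 799 in OE-CTD against CT-CTD, and 0 and 9 in the interaction. In OE-WD against CT-WD the edgeR number ranged from 4 to 1499 with 1 library left out, the highest without CT-WD 1. In OE-CTD against CT-CTD it ranged from 77 without CT-CTD 3 to 615 without CT-WD 1. With the replicate block it was 53 in OE-WD against OE-CTD, where 12.1% of all genes had an unadjusted p under 0.05. No member was called there with the block. Groups of 3 and 4 libraries, sample codes whose meaning is not given, a sample label that names no muscle, and group sizes in the study's text that differ from the labels limit each comparison.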
